A study of Mus musculus with 7 samples.

Results

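The comparison described here sets the late stage of recovery from parietal cell loss against the early stage: the 2 arrays of mouse gastric corpus taken 72 h after the last dose of diphtheria toxin against the arrays taken 24 h and 36 h after it. These 4 arrays were chosen by their labelled times, out of 7 arrays in the series. The comparison covers 21258 of the 22180 genes measured, since genes of the X and Y chromosomes were left out. The 4 mice were Atp4b-DTR transgenics aged 8 to 12 weeks that received 225 ng of toxin by intraperitoneal injection on 3 successive days, so the early and late groups differ in time alone among the factors the labels give. The early side holds 1 array at 24 h and 1 at 36 h, the late side 2 arrays at 72 h. The other arrays were 1 from a saline-treated Atp4b-DTR mouse and 2 from mice taken 48 h after the toxin. They do not enter the difference and are given beside it for position only.

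Parietal cells secrete hydrochloric acid through a proton pump made of Atp4a and Atp4b, and they are packed with mitochondria that supply it. The transgene places a toxin receptor under the Atp4b promoter, so toxin kills cells that use this promoter, and the design text describes the loss as reversible. Loss of parietal cells in the mouse corpus is followed by division of progenitor cells in the isthmus of the gland and by changes in the neighbouring chief and mucous neck cells. In whole tissue, fewer cells of a type and less RNA per cell cannot be told apart.

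Genes of gastric epithelium were bright on all 7 arrays: Pgc, a pepsinogen, read 13.18 to 13.46 and Gkn1, a surface pit cell product, 12.92 to 13.02. Both are also made in the antrum, whereas the proton pump gene Atp4a, which marks the corpus, read 12.78 in saline. All values are log2 signal, on which a difference of 1 is 2-fold. The 24 h array had the pattern of a female mouse and the other 3 arrays of the contrast that of males: Xist read 9.17 at 24 h and 2.70 to 3.22 on those 3, and the Y-linked Eif2s3y 3.40 against 7.79 to 8.39. The saline array also had the female pattern, with Xist at 8.13. Sex pattern therefore moves with the 24 h array, its part in autosomal differences was not tested, and the difference of the 72 h arrays from the 36 h array, which share a pattern, is given beside the main lists and the largest genes. If dosing was at a fixed hour, which the labels do not state, the 36 h tissue was taken at the opposite phase of the day from the other times.

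No gene was called between late and early (0 of 21258, 0%, at an adjusted p under 0.05 in limma). Limma fits a linear model and draws each gene's variance towards a common value. At an unadjusted p under 0.05, 768 genes were higher late (3.61%) and 815 lower (3.83%). The smallest adjusted p was 0.58, and an exact permutation test of 2 arrays against 2 could not go below a two-sided p of 0.333. The genes below are therefore described by their values and by whether the groups overlap. Both 72 h arrays lay above both early arrays in 3335 genes (15.7%) and below both in 3266 (15.4%), which is the background for every such count that follows; after each array's median was subtracted these became 7519 and 2295, since the median gene shifted by 0.0373. Differences of at least 2-fold without overlap were few, with 29 genes higher late (0.136%) and 7 lower (0.0329%). Leaving out an array loosens the overlap criterion and gave 39 higher and 15 lower without the 24 h array, 85 and 63 without the 36 h array, 67 and 52 without replicate 1 of 72 h, and 36 and 14 without replicate 2. For scale, 130 genes differed at least 2-fold between the 24 h and 36 h arrays, 67 between the 72 h arrays and 107 between the 48 h arrays.

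The lists with the largest shares of genes without overlap were G2/M and mitosis (46 of 51), the TCA cycle (18 of 21), G1/S and DNA replication (33 of 40) and oxidative phosphorylation (48 of 63). Genes of mitochondrial energy supply were higher at 72 h, and genes of DNA replication and mitosis were lower. The median of all genes was 0.00, while 63 oxidative phosphorylation genes had a median of 0.37 and 51 genes of G2/M phase and mitosis a median of -0.58. The plot of list levels by array gives the order of the 7 arrays for 6 lists.

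**Figure D1:**
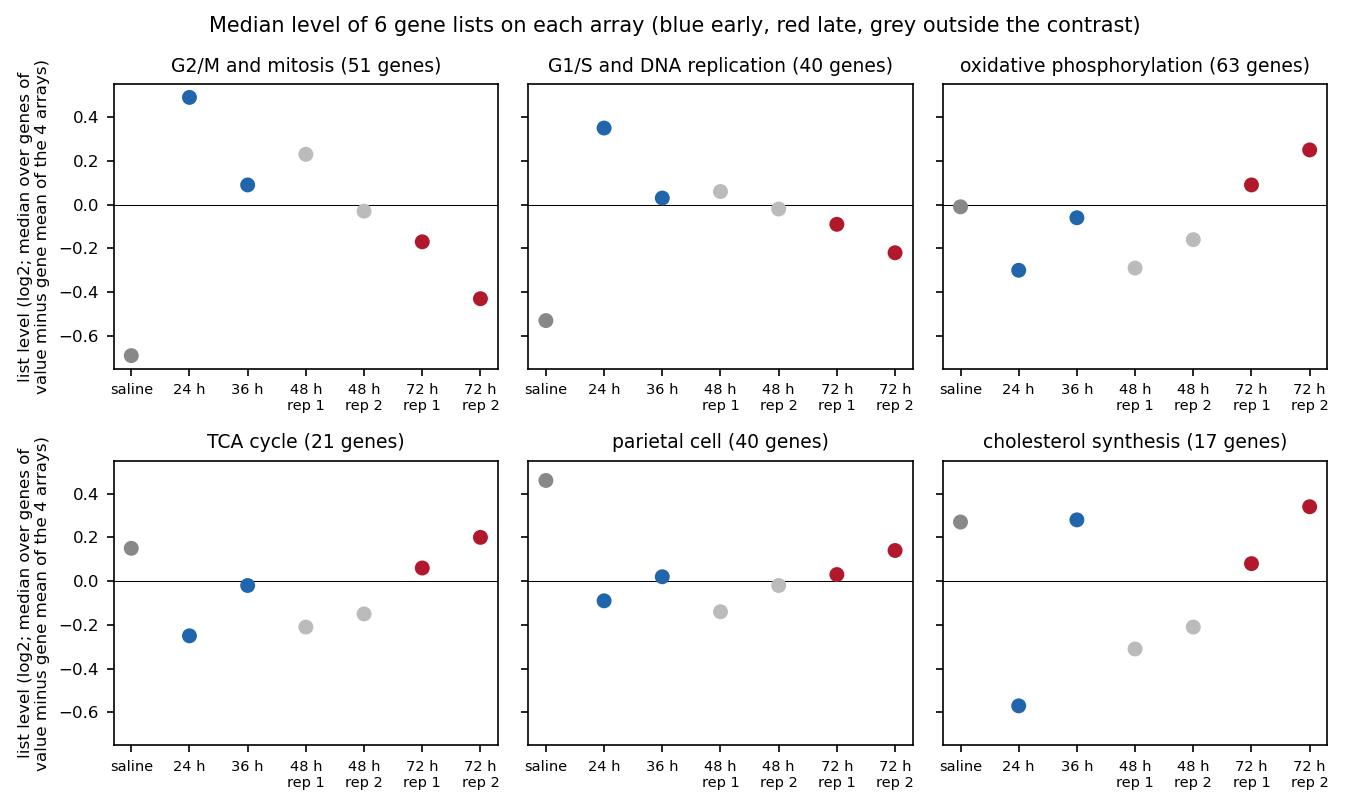
Level of 6 gene lists on each of the 7 arrays, as the median over the list's genes of the log2 value minus the gene's mean on the 4 arrays of the contrast; blue points are early, red late, and grey points the saline and 48 h arrays. The G2/M level went from 0.49 at 24 h and 0.09 at 36 h to -0.17 and -0.43 at 72 h, with saline at -0.69, and the cholesterol list had its early arrays at -0.57 and 0.28 and its late ones at 0.08 and 0.34.

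Proliferation genes were lower at 72 h almost without exception. Of 51 measured G2/M and mitosis genes, 51 had a lower late mean, against 48% of all genes, and 46 lay below both early arrays; 34 had an unadjusted p under 0.05. Of 40 genes of G1/S phase and DNA replication, 39 had a lower mean, 33 lay below both early arrays and 17 had an unadjusted p under 0.05, with a list median of -0.38. Against the 36 h array alone, which shares the sex pattern of the 72 h arrays, the list medians were -0.36 and -0.23, and against the 24 h array -0.80 and -0.52. The highest level was thus at 24 h in both lists. Relative to saline the early mean was 1.01 higher for the G2/M list and the late mean 0.43 higher, so that 72 h lay between the early arrays and saline. For the replication list these medians were 0.74 and 0.34.

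Top2a, the topoisomerase that untangles chromosomes before they part, read 8.38 at 24 h, 7.93 at 36 h, then 7.41 and 6.91 on the 72 h arrays, against 6.52 in saline. Its difference of -1.0 ± 0.24 (log2, standard error of the limma fit) was the largest of the G2/M list, and every late array was lower than every early one. Kif11, a motor that drives the spindle poles apart, read 7.84 and 7.44 early and 6.88 and 6.56 late, a difference of -0.92 ± 0.19. The proliferation marker Mki67 read 9.64 and 9.21 early and 8.81 and 8.60 late. In these 3 genes the groups did not overlap and the late arrays stayed above saline, where Kif11 read 6.22 and Mki67 7.69. Cenpe, a kinetochore motor, differed by -0.86 ± 0.22, and Bub1, a kinase of the spindle checkpoint, by -0.84 ± 0.21. Zwilch and Knl1, which help to build the kinetochore, belong to no list, and were among the 15 largest lower genes, at -1.13 ± 0.21 and -0.92 ± 0.19. Zwilch read 6.38 and 6.02 early, 5.22 and 4.93 late and 4.97 in saline, so its late arrays were at the saline level.

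In the replication list the largest differences were of Rrm2, a subunit of the ribonucleotide reductase that makes DNA precursors, and Hells, a chromatin remodeller. Rrm2 read 7.88 and 7.28 early and 6.95 and 6.27 late, a difference of -0.97 ± 0.30, while a dimmer probe set of the gene gave -0.32. Hells read 7.98 and 7.24 early and 6.86 and 6.42 late, against 5.27 in saline. Prim1, the DNA primase, differed by -0.80 ± 0.20. Mcm2 and Mcm3 are subunits of the replicative helicase, and they differed by -0.22 ± 0.11 and -0.70 ± 0.20. All 5 genes were below both early arrays on both 72 h arrays. Pold1, a subunit of DNA polymerase delta, was the only member whose late mean was not lower, and 7 of the 40 genes, Pold1 among them, did not lie below both early arrays. Histone genes, which are made in S phase, were mixed: 10 of 14 had a lower late mean and 5 lay below both early arrays, led by H2ac20 at -0.78 ± 0.41 and H2ax at -0.70 ± 0.29. H2ac20 read 7.44 at 24 h, 6.20 at 36 h, and 6.16 and 5.93 at 72 h, so its difference came mostly from the 24 h array.

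G2/M genes share a promoter element, the cell cycle genes homology region (CHR, TTTGAA), through which the DREAM complex is known to hold them silent in resting cells. Promoters are shown for the 3 G2/M genes with the largest late minus early difference among those that hold the element, to let the shared letters be seen; each runs from 250 bases before to 50 bases after the start in RefSeq (build GRCm38.p6), 5′ to 3′ on the gene's strand, with TTTGAA or its reverse complement TTCAAA in capitals. Top2a lies at chr11:99024140-99024439 on the minus strand, Kif11 at chr19:37376132-37376431 on the plus strand, and Anln, whose product anillin forms the contractile ring, at chr9:22389157-22389456 on the minus strand.
Top2a: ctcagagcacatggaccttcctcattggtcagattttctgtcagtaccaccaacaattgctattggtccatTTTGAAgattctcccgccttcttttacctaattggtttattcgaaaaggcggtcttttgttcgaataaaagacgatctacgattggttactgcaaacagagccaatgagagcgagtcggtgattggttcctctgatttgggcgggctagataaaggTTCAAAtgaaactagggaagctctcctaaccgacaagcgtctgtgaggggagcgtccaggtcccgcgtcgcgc
Kif11: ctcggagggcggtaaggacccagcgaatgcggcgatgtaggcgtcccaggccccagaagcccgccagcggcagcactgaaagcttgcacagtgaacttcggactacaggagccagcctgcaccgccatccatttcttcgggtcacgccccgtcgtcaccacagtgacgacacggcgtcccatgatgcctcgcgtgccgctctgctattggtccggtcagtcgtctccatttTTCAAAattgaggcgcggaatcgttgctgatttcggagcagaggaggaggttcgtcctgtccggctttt
Anln: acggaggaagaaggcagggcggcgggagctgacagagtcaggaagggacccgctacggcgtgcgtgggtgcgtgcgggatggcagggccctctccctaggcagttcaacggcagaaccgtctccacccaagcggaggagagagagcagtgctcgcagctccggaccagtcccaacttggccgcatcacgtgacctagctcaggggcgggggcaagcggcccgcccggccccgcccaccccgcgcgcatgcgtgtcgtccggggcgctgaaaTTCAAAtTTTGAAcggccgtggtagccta
The element in Kif11 begins 19 bases before the start and a copy in Top2a 23 bases before it, both in reverse orientation, while Anln has copies that begin 22 and 29 bases after it. Of the 51 G2/M genes 41 had a promoter in the table, and 31 of these (75.6%) held TTTGAA on either strand, against 20.2% of all 27025 genes with a promoter and 3 of 34 replication genes (8.82%). CCAAT was present in 29 of the 41 (70.7%) and in 21 of 34 replication genes (61.8%), against 41.1% of all genes. Among the other lists searched its share ran from 35.2% in oxidative phosphorylation to 100% in cholesterol synthesis, so it was not particular to G2/M genes. The replication genes held the E2F letters TTTCCCGC in 6 of 34 and TTTGGCGC in 5 of 34 (17.6% and 14.7%), against 1.24% and 0.585% of all genes. Both strands were searched, and none of these motifs contains another. The letters describe the promoters that members share and are not evidence of binding.

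Genes of the respiratory chain were higher at 72 h. Of 63 measured oxidative phosphorylation genes, 59 had a higher late mean against 51% of all genes, 48 lay above both early arrays and 31 had an unadjusted p under 0.05. The list median was 0.37, with 0.26 against the 36 h array alone and 0.45 against the 24 h array, and the same 48 genes lay above the 36 h array. Both 48 h arrays, which took no part in the contrast, lay below both 72 h arrays in 56 of the 63 genes, against 16.8% of all genes. The 48 h mean lay between the early and late means in 18 of the 63, against 7262 of all 21258 genes. The late level also passed the saline array, from which the early mean differed by a median of -0.17 and the late mean by 0.16.

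Each part of the chain had most of its genes above both early arrays. In complex I, which takes electrons from NADH, 24 of 31 genes lay above both early arrays with a median of 0.36. Complex III and complex IV, which pass the electrons on to oxygen, each had 7 of 8 genes above, and medians of 0.44. In ATP synthase 10 of 15 were above, with a median of 0.27. Ndufb8 of complex I read 5.90 and 6.27 early and 6.76 and 6.91 late, a difference of 0.75 ± 0.14. Cox4i1 of complex IV read 8.59 and 8.92 early and 9.24 and 9.77 late, a difference of 0.75 ± 0.24. In both genes the late arrays were above saline too, at 6.44 and 8.92. Ndufa2 and Ndufa3 differed by 0.50 ± 0.13 and 0.50 ± 0.18, and Cox6b1 by 0.58 ± 0.19. Ndufa11 had the largest difference of the list at 0.82 ± 0.21, yet its other probe set gave -0.05.

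The TCA cycle, which feeds the chain, had 21 of 21 genes with a higher late mean, 18 above both early arrays and a median of 0.27. Its median was 0.37 against the 24 h array and 0.13 against the 36 h array. The 48 h mean lay between the early and late means in 3 of the 21, against 7262 of all 21258 genes. Sdhc and Sdhb, subunits of succinate dehydrogenase that serve both the cycle and the chain, differed by 0.51 ± 0.13 and 0.48 ± 0.12. Sdhb read 8.19 and 8.44 early, 8.71 and 8.88 late and 8.53 in saline. Cs, citrate synthase, differed by 0.28 ± 0.12, and Mdh1, cytosolic malate dehydrogenase, by 0.47 ± 0.20. Fatty acid oxidation was less uniform, with 10 of 25 genes above both early arrays, 4 below and a median of 0.09. Echs1 and Acadvl, enzymes of the spiral of beta oxidation, were higher by 0.68 ± 0.23 and 0.60 ± 0.22, while Hadhb differed by -0.65 ± 0.13 at a dim 3.48 to 4.39 on the 4 arrays. Of 18 glycolysis genes 8 lay above and 1 below, with a median of 0.15. Ldhb, the lactate dehydrogenase subunit of oxidative tissues, stood out with 7.12 and 7.84 early, 8.31 and 8.62 late and 8.71 in saline, a difference of 0.98 ± 0.27.

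**Figure D2:**
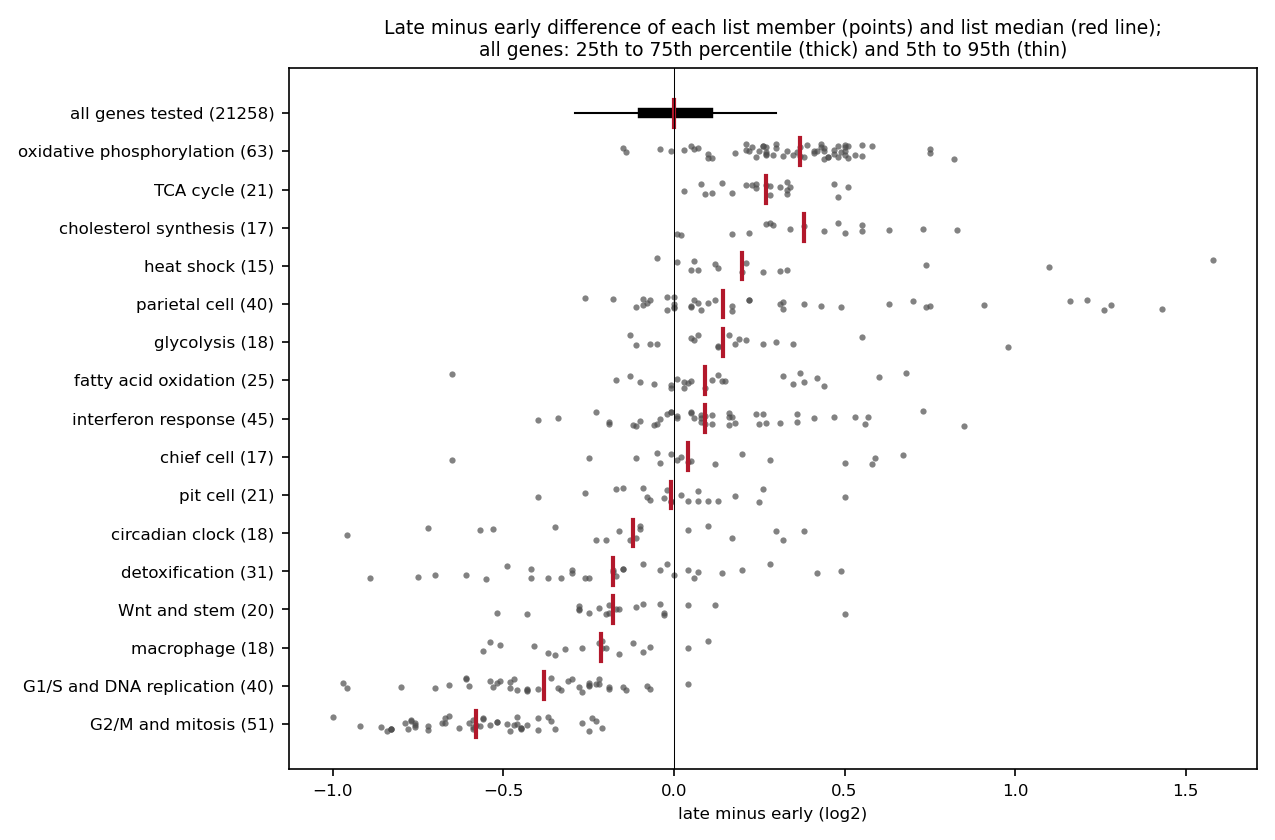
Late minus early difference (log2) of each member of 16 gene lists as points, with the list median as a red line and the number of measured genes in brackets; the top row gives the percentiles of all 21258 genes. The oxidative phosphorylation points lie to the right around a median of 0.37 and the G2/M points wholly to the left around -0.58, while pit cell genes centre on -0.01.

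Parietal cell genes split into those that were near the saline level at 72 h and those that were not. Of 40 measured genes, 30 had a higher late mean, 12 lay above both early arrays and 4 below, and the list median was 0.15, or 0.09 against the 36 h array alone. Atp4b, the beta subunit of the proton pump and the source of the promoter in the transgene, read 10.68 at 24 h, 12.33 at 36 h, and 12.65 and 12.92 at 72 h, against 12.94 in saline. Atp4a, the catalytic subunit, read 11.37 and 12.18 early and 12.42 and 12.63 late, against 12.78. The late arrays were above both early ones in each gene, and most of the distance lay between 24 h and 36 h. The late minus early differences were 1.28 ± 0.58 and 0.75 ± 0.38. The 48 h arrays read 11.66 and 12.39 for Atp4b and 11.53 and 12.36 for Atp4a, so replicate 1 of 48 h was below the 36 h array in both genes.

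Aqp4, the water channel of the basal membrane, read 5.45 and 6.53 early and 7.05 and 7.78 late, against 8.53 in saline. Slc4a2, which exports the bicarbonate made as acid is secreted, read 7.33 and 8.27 early and 8.77 and 9.33 late, against 9.58. The differences were 1.43 ± 0.46 and 1.26 ± 0.40, and in both genes replicate 2 of 72 h was the higher late array. Ckb, a creatine kinase that buffers ATP, read 8.53 and 9.07 early and 9.71 and 10.31 late, with saline at 9.74. Cox7a1, a tissue-restricted subunit of complex IV, read 5.72 and 6.25 early and 6.71 and 7.58 late, with saline at 8.61. Slc26a9, a chloride channel, and Kcne2, which pairs with the potassium channel that serves the pump, were higher by 0.91 ± 0.41 and 0.70 ± 0.32. Kcnq1, that potassium channel, had groups that overlapped, at 7.67 and 8.26 early and 8.26 and 8.53 late. The 4 genes of the list below both early arrays were Car2 (-0.11), Slc9a4 (-0.09), Cox6a2 (-0.26) and Slc1a3 (-0.18). Vegfb, a growth factor of the VEGF family, was higher by 0.38 ± 0.10 and still read 8.35 and 8.44 late against 9.57 in saline. Ppargc1a, a coactivator of mitochondrial genes, was higher by 0.49 ± 0.16, at 7.88 and 7.51 early and 8.30 and 8.06 late. Cox7a1, Slc26a9, Kcne2, Vegfb and Ppargc1a were chosen after their values were seen.

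A few parietal cell genes stood far below saline at every time. Slc26a7, a chloride and bicarbonate exchanger, read 4.94 and 4.63 early, 5.28 and 4.94 late and 8.66 in saline. Gpr155 read 5.31 and 5.55 early, 5.32 and 5.97 late and 9.17 in saline. The groups overlapped in both, with differences of 0.32 ± 0.20 and 0.22 ± 0.24. These genes were chosen after their values were seen. Of the 40 genes, 23 read higher in saline than on any of the 4 arrays, against 25.7% of all genes.

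Among genes whose mean on the 4 arrays was above the median gene's, the 15 largest higher ones without overlap ran from 1.25 to 2.46 and the 15 largest lower ones from -0.86 to -1.24. Some dimmer genes differed by as much, such as Hamp, a hepcidin, at -1.37 ± 1.41. Adjusted p in limma was 0.637 to 0.772 for these 30. Tnni3, troponin I of heart muscle, had the largest difference, 2.46 ± 0.72. It read 5.93 and 7.35 early, 8.90 and 9.29 late and 8.46 in saline. Apoa1, the main protein of high-density lipoprotein, read 6.36 and 6.87 early, 7.77 and 9.34 late and 9.92 in saline. Adssl1, an enzyme of the purine nucleotide cycle, read 4.91 and 5.21 early, 6.29 and 6.92 late and 6.65 in saline. Its difference of 1.55 ± 0.28 had an unadjusted p of 0.00294. In Apoa1 the 72 h arrays lay 1.57 apart.

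Against the 36 h array alone the 15 higher genes differed by 0.46 (Atp4b) to 1.75 (Tnni3), and the 15 lower ones by -0.19 (Serpina3n) to -1.68 (Gsdmc3). The late mean was closer to saline than the early mean in 13 of the 15 higher genes and 11 of the 15 lower ones. Among all genes without overlap, most of which differ far less, the shares were 54.3% and 57.3%. Lonrf1 had the smallest unadjusted p of the 30, 0.000553, at 5.87 and 5.57 early, 6.92 and 7.30 late and 7.24 in saline. Il33, an alarm cytokine of epithelial cells, read 6.09 and 6.95 early, 7.55 and 7.98 late and 8.45 in saline. Gga2, a sorting adaptor of the Golgi, differed by 1.27 ± 0.30, and by 0.55 in its other probe set. Frem2, Sdr9c7 and Fabp12 had early arrays 1.03 to 1.71 apart, with 24 h the lower in each. The same held for Atp4b (1.65 apart), Tnni3 (1.42), Gast (1.32) and Aqp4 (1.08).

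**Figure D3:**
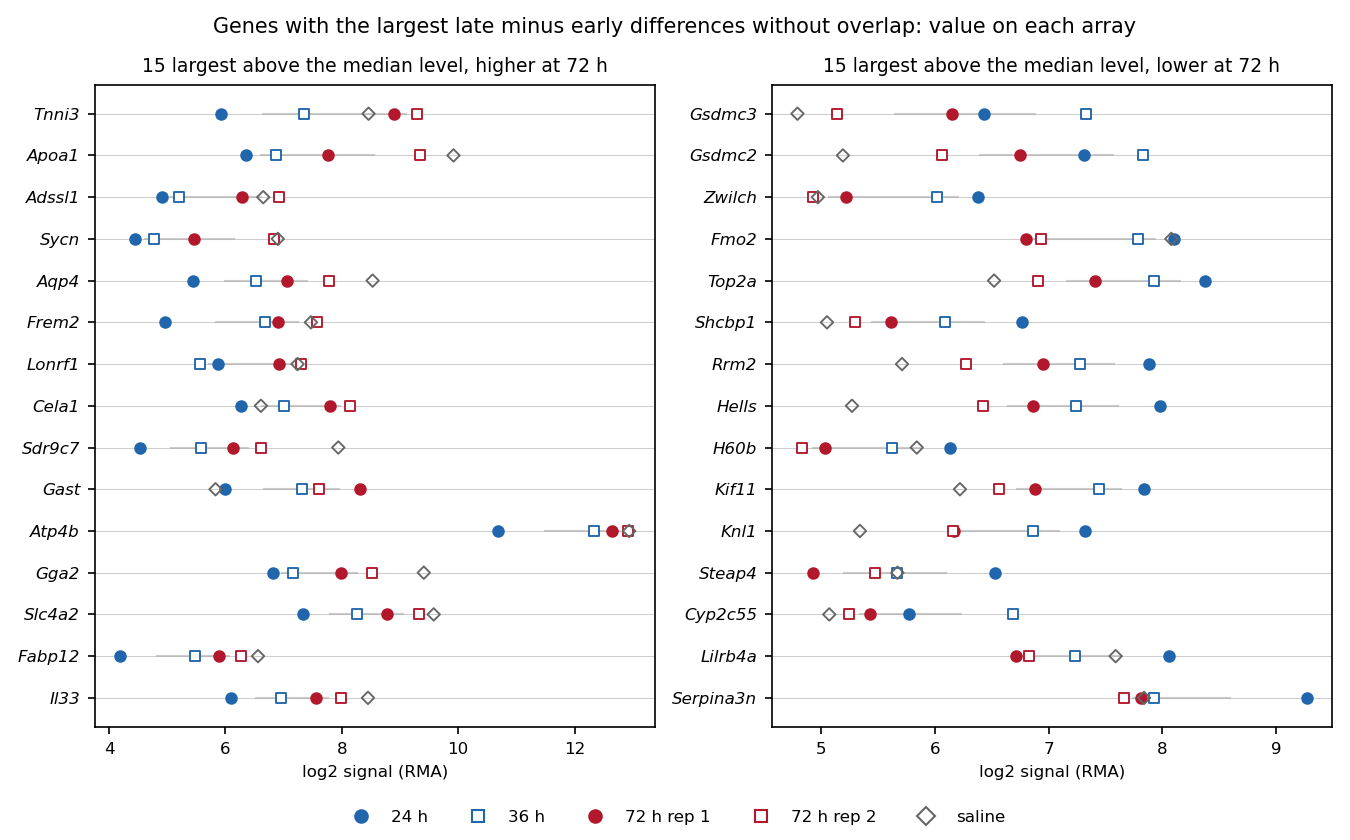
Log2 signal on each array for the 15 genes with the largest higher and the 15 with the largest lower late mean without overlap, among genes above the median level; blue marks 24 h and 36 h, red the 72 h arrays, the grey diamond saline, and the line joins the early and late means. Red points lie to the right of blue ones for the higher genes, most widely in Tnni3 (2.46), and to the left for the lower genes, most widely in Gsdmc3 (-1.24).

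Among the lower genes outside the cell cycle, Gsdmc3 and Gsdmc2 encode gasdermins, a family known for forming membrane pores. Gsdmc3 read 6.43 and 7.33 early, 6.15 and 5.14 late and 4.79 in saline, a difference of -1.24 ± 0.53. Gsdmc2 read 7.31 and 7.83 early, 6.75 and 6.06 late and 5.19 in saline. The 2 genes are close paralogues, so signal may be shared between their probes. Fmo2, a flavin monooxygenase, read 8.10 and 7.79 early, 6.80 and 6.93 late and 8.08 in saline, so its late arrays lay below saline and early arrays alike. Serpina3n, a protease inhibitor of the acute phase, and Steap4, a metalloreductase, differed by -0.86 ± 0.45 and -0.90 ± 0.43. Serpina3n read 9.27 at 24 h but 7.93 at 36 h, beside 7.81 and 7.66 late, so its difference came mostly from the 24 h array. H60b, a ligand of the NKG2D receptor, and Lilrb4a, an inhibitory receptor of myeloid cells, differed by -0.95 ± 0.28 and -0.88 ± 0.50. Shcbp1 differed by -0.98 ± 0.31.

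Macrophage genes were lower at 72 h by a small amount. Of 18 measured, 16 had a lower late mean, 10 lay below both early arrays, 0 lay above both, and the median was -0.22. Against the 36 h array alone the median was -0.19. Mpeg1, a pore-forming protein of phagocytes, read 6.96 and 6.43 early and 6.01 and 6.30 late, and Mrc1, the mannose receptor, 7.20 and 7.24 early and 6.79 and 6.83 late. The differences were -0.54 ± 0.24 and -0.41 ± 0.11. Adgre1, which encodes the F4/80 antigen, and Csf1r, the receptor for the growth factor of the lineage, had groups that overlapped. Medians were near 0 for neutrophil genes (0.07), T and NK cell genes (-0.04) and B and plasma cell genes (0.01). Mast cell genes had a median of 0.36, but only 1 of 10 lay above both early arrays and the list level was 0.37 on replicate 1 of 72 h and -0.15 on replicate 2.

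Interferon-stimulated genes were above the 1 saline array at both stages. The early mean was higher than saline by a median of 0.63 and the late mean by 0.80, and 37 of 45 genes read lower in saline than on any of the 4 arrays, against 24.7% of all genes. Between the stages, 13 genes lay above both early arrays and 6 below, and the median was 0.09, or 0.16 against the 36 h array alone. Usp18, which damps interferon receptor signalling, read 6.49 and 6.39 early, 7.18 and 7.40 late and 5.18 in saline. Oas2, a sensor of double-stranded RNA, read 7.59 and 7.55 early, 8.26 and 8.34 late and 5.41 in saline. Ifit2 differed by -0.34 ± 0.15, and Ifi27 was higher late by 0.57 ± 0.18 though below its saline level of 8.61. The 48 h arrays were unlike each other in this list, with levels of 0.06 and -0.50, a wider gap than between late and early. The saline level was -0.77, so replicate 2 of 48 h lay nearer to saline than to replicate 1.

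In several lists the early arrays stood far apart, and the late arrays lay near 1 of them. Cholesterol synthesis had 17 of 17 genes with a higher late mean and a median of 0.38, yet 2 genes lay above both early arrays. The median was 0.71 against the 24 h array and -0.04 against the 36 h array. Fdps, which makes farnesyl diphosphate, read 6.20 at 24 h, 7.75 at 36 h, then 7.73 and 7.88 on the 72 h arrays. Cyp51, a demethylase of the sterol ring, read 7.05 at 24 h, 8.36 at 36 h, then 8.32 and 8.55 on the 72 h arrays. Hmgcs1, at the head of the pathway, read 9.57 and 10.76 early and 10.48 and 10.82 late. The 24 h array was thus the low one, and the 48 h arrays lay below both 72 h arrays in 16 of the 17 genes, against 16.8% of all genes. The 48 h mean lay between the early and late means in 3 of the 17, against 7262 of all 21258 genes. Dhcr7, the last enzyme of the pathway, and Mvd were the genes without overlap, at 0.38 ± 0.18 and 0.22 ± 0.18. Fdps and Cyp51 were chosen after their values were seen.

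Protein folding genes had the opposite order of the early arrays. The unfolded protein response list had a median of 0.33 against the 36 h array and 0.01 against the 24 h array, with 7 of 25 genes above both early arrays and 2 below. Creld2 read 9.04 at 24 h, 8.32 at 36 h and 9.34 and 9.17 at 72 h. Hyou1, a chaperone of the endoplasmic reticulum, read 8.67 and 8.26 early and 9.01 and 8.94 late, and Hspa5, its main chaperone, differed by 0.27 ± 0.11. Of 15 heat shock genes 5 lay above both early arrays, and the median was 0.32 against 36 h and 0.08 against 24 h. Hspa1a and Hspa1b, the inducible Hsp70 genes, overlapped: Hspa1b read 8.87 at 24 h, 6.68 at 36 h, and 10.08 and 8.63 at 72 h. Hspa1a read 8.21, 6.67, 9.17 and 7.90 on the same arrays. These neighbours are near-identical in sequence, so their probes may share signal. The 36 h array was the low one in these lists.

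**Figure D4:**
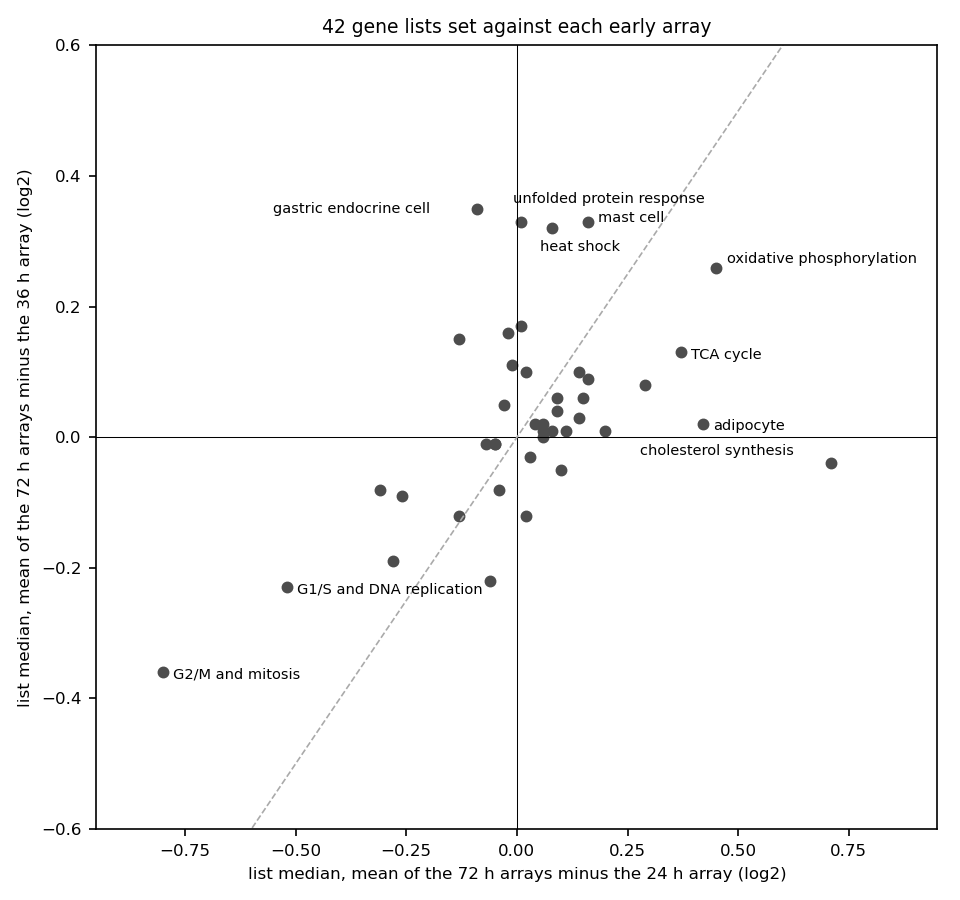
Median of each of 42 gene lists for the mean of the 72 h arrays minus the 24 h array (x axis, log2) and minus the 36 h array (y axis, log2), with equal differences on the dashed line; both axes share the 72 h arrays. G2/M genes are far below 0 on both axes (-0.80 and -0.36) and oxidative phosphorylation above 0 on both (0.45 and 0.26), while cholesterol synthesis lies on the x axis (0.71 and -0.04) and the unfolded protein response on the y axis (0.01 and 0.33).

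The list median of endocrine genes followed the order of the folding genes, at 0.35 against the 36 h array and -0.09 against the 24 h array. Gast, which encodes the acid-stimulating hormone gastrin, was the largest, at 6.0 and 7.32 early, 8.32 and 7.61 late and 5.83 in saline. Its early arrays had the opposite order, with 24 h the lower. Sst, for somatostatin, read 10.70 and 9.46 early and 10.42 and 10.41 late, and Ghrl, for ghrelin, 11.80 and 10.66 early and 11.84 and 11.32 late. The 36 h array was the low one in both, and in neither were the groups apart. Gastrin is made by G cells of the antrum, and the extent of antral tissue in each sample was not tested.

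In the chief cell list 3 of 17 genes lay above both early arrays and 1 below, and the median was 0.04. Slc16a7, a monocarboxylate carrier, read 8.93 and 9.13 early, 9.48 and 9.91 late and 10.94 in saline. Rnase1, a secreted ribonuclease, read 3.92 and 4.02 early, 4.14 and 4.96 late and 8.42 in saline, so it stayed far below saline at 72 h. Mucous neck and metaplasia genes had a median of 0.10, with 6 of 19 above and 2 below. Tff2, a trefoil peptide of neck cells, read 11.15 and 12.11 early and 12.38 and 12.13 late. Dmbt1, a mucosal scavenger protein, read 9.32 and 10.06 early, 9.09 and 9.09 late and 5.91 in saline, so it was lower late and yet far above saline. Pit cell genes had a median of -0.01, with 2 of 21 above and 3 below.

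Genes known from digestive tissues beyond the corpus were mixed. The pancreatic acinar list had 3 of 18 genes above both early arrays, 1 below and a median of 0.16. Sycn, a zymogen granule protein, read 4.44 and 4.78 early, 5.46 and 6.83 late and 6.90 in saline, and Cela1, an elastase, read 6.26 and 7.0 early and 7.80 and 8.14 late. Cpa1 and Ctrb1, which define acinar cells, were at 4.0 to 4.09 and 5.33 to 5.55 on the 4 arrays, with groups that overlapped. Prss1, a trypsin gene of the same cells, was also dim. It read 3.51 and 3.42 early, 4.13 and 3.92 late and 4.75 in saline, a difference of 0.56 ± 0.09 without overlap. Zg16, a granule lectin, read 3.60 at 24 h, 8.27 at 36 h, and 8.17 and 7.94 at 72 h. Fcgbp, a mucus protein of goblet cells, had the same order, at 4.05, 9.50, 8.79 and 8.72 on those arrays. In both genes the 24 h array was low and the 36 h array was near the late ones. In the enterocyte list 5 of 16 lay above and 1 below, with Apoa4 and Fabp2, a lipoprotein and a fatty acid carrier, each higher by 0.67. Sis, which defines the small intestinal brush border, was at 2.77 to 2.82.

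Signalling and protective genes gave small differences. In the Wnt and stem cell list 17 of 20 had a lower late mean, 10 lay below both early arrays, and the median was -0.18, or -0.09 against the 36 h array alone. Myc, a driver of growth and division, read 8.02 and 7.92 early, 7.61 and 7.47 late and 7.05 in saline, a difference of -0.43 ± 0.08. Iqgap3, a marker of isthmus progenitors, differed by -0.52 ± 0.25, and Tnfrsf19 was higher late by 0.50 ± 0.20. Of 31 detoxification genes 13 lay below both early arrays and 2 above, with a median of -0.18, or -0.22 against the 36 h array alone. Gsta3, a glutathione transferase, read 7.58 and 7.81 early, 7.10 and 6.89 late and 5.72 in saline. Ces1f and Adh7, a carboxylesterase and an alcohol dehydrogenase, differed by -0.61 ± 0.29 and -0.55 ± 0.17, and Cyp2c55 by -0.89 ± 0.58, with -0.13 in its other probe set. Gstm2 was higher, by 0.49 ± 0.09.

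Among the p53 targets 8 of 18 lay above both early arrays and 2 below, led by the cell cycle inhibitor Cdkn1a at 0.38 ± 0.17 and by Ccng1 at 0.35 ± 0.10. Of 13 genes of the EGF receptor ligand list, 4 were above and 0 below; Ereg, or epiregulin, read 5.70 and 6.23 early and 6.56 on both late arrays, with a smaller difference of 0.15 in its other probe set. The antimicrobial list had 5 of 18 below and 2 above. Reg3g, a bactericidal lectin, read 5.90 and 4.93 early, 4.37 and 4.57 late and 3.81 in saline. Pigr, which carries IgA across the epithelium, read 8.57 and 8.11 early and 8.11 and 7.47 late, against 5.55.

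Clock genes were compared because the hour of day may differ between the 36 h array and the others, though no label gives it. Of 18 genes 7 lay below both early arrays and 1 above, and the median was -0.12 against the 36 h array and -0.13 against the 24 h array. Arntl, the first gene of the list, read 7.54 on the 36 h array and 8.16 to 8.47 on all others. Npas2 (6.91) and Nfil3 (5.76) were also lowest on that array. Per3 (5.95), Dbp (7.79), Cry2 (7.01), Tef (5.33) and Nr1d2 (6.95) were highest on it. Clock, Per1, Cry1, Nr1d1, Hlf, Bhlhe40, Bhlhe41, Ciart, Rora and Usp2 were neither lowest nor highest there. The share of all genes lowest or highest on that array was not counted, so these positions have no background to be set against. Per1, a repressor of the clock, read 7.97 and 8.07 early and 7.12 and 7.48 late, a difference of -0.72 ± 0.13. Bhlhe41 read 5.47 and 5.09 early and 4.34 and 4.31 late. Cry2 read 6.51 at 24 h, 7.01 at 36 h and 6.15 and 6.23 at 72 h. Per1, Bhlhe41 and Cry2 were picked for having no overlap, so their late arrays lie below both early arrays by that choice. The part of the sampling hour in the other differences was not tested.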

How the data were processed

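Corpus RNA was hybridised to Affymetrix single-channel arrays after labelling with the WT Plus kit. The authors deposited log2 signal for 41345 probe sets and 7 arrays; the submitters' processing notes name RMA and Partek, and the sources used here give neither their versions nor the array build. Array medians were 4.56 to 4.71, and 0 columns belonged to other samples. Precision is limited by the number of arrays. The 72 h samples are called independent in the design text, and the letters A and B in their titles are unexplained; p-values measure only the spread between these arrays.

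Probe sets with 1 gene symbol (23521) were kept, the brightest per gene (1082 genes had several), which gave 22180 genes; 905 X and 17 Y genes were left out. The platform annotation's names were kept after a match by Entrez identifier to the GRCm38.p6 gene table, in which 193 probe sets were not found. Late minus early was fitted with limma 3.58.1 in R 4.3.3 over the 6 toxin arrays in 3 sets (24 h with 36 h, 48 h, 72 h), which left 3 residual degrees of freedom beside 1.87 from the prior. A gene was called when its p, adjusted by Benjamini and Hochberg's method over all genes, was under 0.05. Grouping the 24 h with the 36 h array counts their time difference as spread. RMA left equal values on both early arrays in 2253 genes and on both 72 h arrays in 2265. The model was tested on simulated data. Of 43 gene lists 42 had at least 5 measured genes and are described by counts and medians without a test; erythroid genes had 2.

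The compared arrays, the lists and the genes were chosen with earlier results of these data known. Genes are named where they are among the 15 largest in each direction without overlap and above the median level (2 without established names were skipped each way), or are the first 2 members of a list or up to 4 of its largest without overlap. Gpr155, Slc26a7, Slc26a9, Kcne2, Cox7a1, Vegfb, Ppargc1a, Fdps, Cyp51, Ghrl, Ctrb1, Sis, Zg16, Gstm2, Pold1 and Anln fall outside that rule and were chosen after their values were seen. Kcnq1, Car2, Slc9a4, Cox6a2 and Slc1a3 also fall outside it and were chosen in the same way. The clock list was named in full to give each gene's position on the 36 h array. Alternatives changed the arrays and groups of the fit, the variance prior, the filter, the collapse to genes and the scaling, kept X and Y genes, or left out each array.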

Additional observations from a re-analysis of the deposited data

How the results depend on the processing

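Calls stayed at 0 in all 15 alternatives, with the smallest adjusted p between 0.312 and 0.698, and with 1465 to 2365 genes at an unadjusted p under 0.05. The genes 2-fold apart without overlap numbered 36 to 85 higher and 14 to 63 lower when an array of the contrast was left out, and stayed within 28 to 32 and 6 to 9 under the other settings. Each leave-out of a contrast array relaxes the overlap criterion by construction. The median of the TCA cycle list was 0.13 to 0.37 over those leave-outs, with 0.13 without the 24 h array. The other main medians also kept their sign. Over the leave-outs the G2/M list ran from -0.80 to -0.36 and the replication list from -0.52 to -0.23. Oxidative phosphorylation ran from 0.26 to 0.45 and the parietal cell list from 0.07 to 0.17. Of 105 genes, 6 changed sign in a leave-out: Hmgcs1 (range -0.11 to 1.08), Zg16 (-0.21 to 4.46) and Fcgbp (-0.74 to 4.70) were negative without the 24 h array, Sst (-0.29 to 0.95) and Ghrl (-0.21 to 0.92) without the 36 h array, and Gpr155 (-0.11 to 0.54) without replicate 2 of 72 h. Of 42 list medians, 14 changed sign under at least 1 alternative; chief cell (-0.13), endocrine (-0.09) and interferon (-0.02) did so without the 36 h array and cholesterol (-0.04) without the 24 h array. No paired analysis was possible because the arrays come from different mice and no label pairs an early with a late one. Fitting 24 h and 36 h as groups of their own rests on 2 residual degrees of freedom and gave 2086 genes at an unadjusted p under 0.05.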

Other observations

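Gene families picked by symbol after the values were seen were counted in the same contrast, and some of their members also belong to the lists above. Of 71 mitochondrial ribosomal protein genes, 29 lay above both early arrays and 3 below, against 15.7% and 15.4% of all genes, with a median of 0.12. Both 48 h arrays lay below both 72 h arrays in 43 of the 71, against 16.8% of all genes. The 48 h mean lay between the early and late means in 16 of the 71, against 7262 of all 21258 genes. Cytosolic ribosomal protein genes, by comparison, had 8 of 56 above and 4 below, a median of 0.04, and 47 of 56 read lower in saline than on any of the 4 arrays, against 24.7% of all genes. The 9 minichromosome maintenance genes, which encode the helicase of DNA replication and its relatives, all lay below both early arrays with a median of -0.46. Most of them are members of the replication list already described. All 18 centromere protein genes had a lower late mean, 11 lay below both early arrays, and the median was -0.24. Some of these, such as Cenpe, are in the G2/M list. Kinesin genes, some of them also in that list, had 12 of 37 below and 7 above, with a median of -0.01. Of 24 genes of ribosome assembly (symbols starting with Nop, Utp or Rrp) 10 lay below and 3 above, with a median of -0.10. Proteasome subunits had 10 of 38 below and 3 above. The V-type proton pump, which acidifies vesicles and is distinct from the gastric pump, had 8 of 22 above and 2 below with a median of 0.08.

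Adipocyte genes had a median of 0.42 against the 24 h array and 0.02 against the 36 h array, the same order of the early arrays as for cholesterol synthesis. Hamp2, a hepcidin, read 5.64 and 4.38 early, 5.68 and 6.82 late and 9.53 in saline, a difference of 1.24 ± 0.55. Hamp read 4.52 and 2.73 early and 2.14 and 2.38 late, but 7.36 on replicate 2 of 48 h.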
